A study of Mus musculus with 88 samples.

Results

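The AP-1 transcription factor is built from the proteins of the Fos and Jun families, and the levels of their 7 genes (Fos, Fosb, Fosl1, Fosl2, Jun, Junb and Jund) were followed here in sorted brain nuclei. Members were found by gene ID, as the rows of the count tables that the GENCODE vM21 annotation names with these symbols, which gave 7 of 53749 genes. The study asked how fear learning and a stress hormone alter transcription in neurons and non-neurons, and where γH2AX, the phosphorylated histone that marks DNA double-strand breaks, lies in the genome. Nuclei came from male C57BL/6J mice 4 months old that were housed singly before the experiment. CFC10 and CFC30 mice went through contextual fear conditioning, in which a new cage is paired with foot shocks, and were killed 10 or 30 minutes after placement in the cage. Naive mice were not trained. Hippocampus (HIP) and medial prefrontal cortex (mPFC) were fixed in paraformaldehyde and their nuclei sorted into NeuN- (non-neurons of all kinds) and NeuN+ (neurons), with 4 libraries for each group in the HIP and 3 in the mPFC. In a separate experiment mice received corticosterone at 2 mg/kg or saline 30 minutes before death, and hippocampal PU.1+ (microglia), GFAP+ (astrocytes), 3X- (nuclei without any of the 3 markers NeuN, GFAP and PU.1) and NeuN+ nuclei were sorted, with 4 libraries for each group. γH2AX was mapped by ChIP-seq in unsorted tissue pooled from 3 animals for each replicate, with CFC30 and naive peaks joined in 1 list for each region.

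AP-1 works as a dimer. Fos proteins do not pair with each other and need a Jun partner, whereas Jun proteins can also pair among themselves. In brain the genes of both families are known for fast and brief transcription after synaptic activity, so nuclear RNA, which holds the unspliced and newest transcripts, is a close reading of their transcription. Fos and Fosb encode proteins with strong activation domains. Fosl1 (Fra-1) and Fosl2 (Fra-2) lack such a domain. Jun is a strong activator, Junb activates more weakly and can hold Jun back, and Jund is the member kept at a steady level in resting cells of many kinds.

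Libraries held 10561897 to 18271372 counts in the HIP, 10577263 to 16392677 in the mPFC and 5935395 to 12758257 in the corticosterone experiment. Levels are given in CPM (counts scaled to the total of each library), and 1 count was worth about 0.1 CPM, so the low members rest on few counts. Replicates 3 and 4 of HIP NeuN- naive nuclei held identical counts and were counted once, which left 3 libraries in that group. Nothing in the labels says that replicates came from separate animals, so the tests measure the spread between these libraries. Tests between fractions or populations took their libraries as independent, although the paper gated these from the same stained nuclei. In bulk nuclei, fewer cells of a type and less RNA per cell cannot be told apart. The markers separated the sorts, though not fully. The 5 excitatory neuron markers summed to 63.5 to 187 CPM in NeuN- and 1143 to 1463 CPM in NeuN+ libraries of both regions. The 5 inhibitory neuron markers separated them less, with 20.6 to 66.9 CPM in NeuN- and 72.4 to 112 CPM in NeuN+ libraries. The 6 microglia markers summed to 6023 to 6896 CPM in PU.1+ libraries and at most 69.8 CPM in the other 3 populations. Excitatory neuron markers reached 350 to 734 CPM in PU.1+ and GFAP+ libraries, against 1417 to 1538 CPM in the NeuN+ libraries of that experiment, and oligodendrocyte markers 9350 to 11243 CPM in 3X- libraries.

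Fos lies on chromosome 12 (85473890 to 85477273, plus strand, GRCm38), Fosb on chromosome 7 (19302696 to 19310051, minus strand), Fosl1 on chromosome 19 (5447547 to 5455946, plus strand) and Fosl2 on chromosome 5 (32135801 to 32157842, plus strand). All 4 Fos genes have 4 exons, and reads of the whole gene body, introns included, were counted. Jun (chromosome 4, 95049034 to 95052222, minus strand), Junb (chromosome 8, 84974484 to 84978718, minus strand) and Jund (chromosome 8, 70698949 to 70700616, plus strand) have 1 exon each and no intron. Of the 7 members, 4 overlap another gene: Fosl1 overlaps Ccdc85b, Jun the antisense RNA Junos, Junb Prdx2 and Jund the antisense RNA Gm11175. The strand setting of the counting is not given in the sources used here, so reads in these overlaps could count for either gene or be dropped.

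RefSeq promoters (GRCm38.p6, 250 bases before to 50 after the annotated start) matched 6 of the 7 members. The 150 bases before the start are shown for the 3 members with the largest rises after CFC, Fosb, Fos and Junb, and for Jun, which was called in no comparison with naive. Capitals mark TGACG, the core of the cAMP response element (CRE) that CREB binds, and in Jun TGACATCA, a site for dimers of Jun with ATF proteins.
Fos, chr12:85473740-85473889, plus strand: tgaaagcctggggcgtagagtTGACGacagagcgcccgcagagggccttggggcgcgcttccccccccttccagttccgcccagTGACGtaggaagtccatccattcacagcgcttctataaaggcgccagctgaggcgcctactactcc
Fosb, chr7:19310046-19310195, minus strand: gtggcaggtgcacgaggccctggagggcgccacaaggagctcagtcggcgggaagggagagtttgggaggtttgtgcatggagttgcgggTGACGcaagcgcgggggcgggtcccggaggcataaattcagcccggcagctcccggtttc
Junb, chr8:84978749-84978898, minus strand: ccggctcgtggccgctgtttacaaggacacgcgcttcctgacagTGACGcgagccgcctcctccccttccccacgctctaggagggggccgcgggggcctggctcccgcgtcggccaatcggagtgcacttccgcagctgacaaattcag
Jun, chr4:95052223-95052372, minus strand: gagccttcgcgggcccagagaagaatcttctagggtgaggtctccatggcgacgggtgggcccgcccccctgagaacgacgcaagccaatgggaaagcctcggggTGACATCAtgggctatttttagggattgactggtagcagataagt

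TGACG began 66 and 129 bases before the start of Fos, 60 before that of Fosb and 106 before that of Junb, and TGACATCA began 45 bases before that of Jun. The RefSeq start of Junb lies 30 bases before the GENCODE start of the counted gene, and that of Fosb 6 bases after it. For Jund the RefSeq start lies 1210 bases before and for Fosl2 671 bases after the GENCODE start, so their windows are not at the starts of the counted genes and are not shown. On both strands, TGACG is held by 20.8% of all 32851 RefSeq promoters of this length and TGACATCA by 3.62%. The full CRE (TGACGTCA, 1.79% of promoters), the AP-1 site known as the TPA response element (TGACTCA, 5.20%) and the CArG box, the site of serum response factor (1.63%), had no match in the 6 windows, those of Jund and Fosl2 included. Bases further than 250 before the start were not searched, so the genes are not shown to lack these sites. A match of letters is a description of the sequence and not evidence of binding.

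Before any training, the Jun family made up most of the AP-1 RNA per length. On the FPKM scale (CPM for each kilobase of gene body), the 4 Fos genes held 12.4% ± 6.29 of the summed level of the 7 members in mPFC NeuN+ naive nuclei (SD, n = 3), 2.75% ± 0.37 in mPFC NeuN- (n = 3), 15.2% ± 2.95 in HIP NeuN+ (n = 4) and 4.24% ± 0.23 in HIP NeuN- naive nuclei (n = 3). Jun and Jund were the 2 leading members on this scale in each of these 4 groups. The shares depend on the division by gene body, introns included, which spans 22042 bp for Fosl2 and 1668 to 4235 bp for the Jun genes. By mean CPM, Fosl2 led in NeuN+ naive nuclei, with 13.6 CPM against 8.54 for Jun in the HIP. In the mPFC it had 4.86 CPM against 2.24 for Jund. In NeuN- naive nuclei Jun led by CPM as well, at 15.4 CPM in the HIP and 12.5 in the mPFC. In mPFC NeuN+ nuclei the Fos family share was 12.4% in naive, 49.0% ± 0.64 in CFC10 and 36.0% ± 1.27 in CFC30 nuclei (n = 3 each). It was 15.2%, 27.5% ± 3.28 and 22.7% ± 2.42 over the same series in HIP NeuN+ nuclei (n = 4 each). In mPFC NeuN- nuclei it was 2.75%, 13.8% ± 4.78 and 16.5% ± 2.53, so the share was highest at the later time there. HIP NeuN- nuclei had 4.24%, 8.83% ± 1.61 and 6.71% ± 1.12.

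NeuN- and NeuN+ naive nuclei differed in 3 of the 6 tested members in each region, a lower share than over all genes. Of all genes, 70.8% passed the test between fractions in the HIP and 69.5% in the mPFC (edgeR's quasi-likelihood test, Benjamini-Hochberg adjusted p under 0.05, called hereafter). Fosl2 was lower in NeuN- nuclei, by 1.92 ± 0.14 on the log2 scale in the HIP (adjusted p = 2.83e-13) and by 1.39 ± 0.30 in the mPFC (adjusted p = 0.000195). Jund was higher in NeuN- nuclei, by a log2 change of 1.64 ± 0.24 in the HIP (adjusted p = 4.61e-07) and 1.01 ± 0.25 in the mPFC (adjusted p = 0.000739). Jun had 11.4 to 13.4 CPM in mPFC NeuN- and 1.77 to 2.41 CPM in mPFC NeuN+ naive nuclei, a log2 change of 2.03 ± 0.20 (adjusted p = 1.4e-09). In the HIP it had 11.7 to 17.8 CPM in NeuN- and 6.42 to 10.1 CPM in NeuN+ naive nuclei, and its log2 change of 0.39 ± 0.18 was not called (adjusted p = 0.0646). It was called without the filter on low levels and without NeuN- naive replicate 3 or NeuN+ naive replicate 4 (adjusted p 0.00798 to 0.0411). Junb and Fosb were called in neither region (adjusted p 0.136 to 0.915), although in the mPFC Junb was called without NeuN- naive replicate 1 (adjusted p = 0.0246) and Fosb without NeuN- naive replicate 2 (adjusted p = 0.046). Fos was higher in HIP NeuN- than NeuN+ naive nuclei by a log2 change of 1.74 ± 0.62 (adjusted p = 0.0141), on 1 or 2 counts a library in NeuN+, and the call was lost without NeuN- naive replicate 2 (adjusted p = 0.0815). The scaling of the test (TMM) lowers NeuN- levels against NeuN+ levels by 0.47 on the log2 scale in the HIP and 0.52 in the mPFC relative to CPM, so these changes are smaller or more negative than the ratio of CPM.

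Fosb and Fos had the largest rises of the family in HIP NeuN+ nuclei after CFC. Fosb, known for stable splice products that build up with repeated activity, had 2.71, 3.20, 2.03 and 3.34 CPM in CFC10 against 0.167, 0.0619, 0.246 and 0.169 CPM in naive nuclei. Every CFC10 library was above every naive library, and the log2 change was 4.09 ± 0.37 (SE), a 17.1-fold rise (adjusted p = 8.18e-07). Fos, the immediate early gene most used as a marker of active neurons, had 3.52, 1.56, 2.10 and 2.63 CPM in CFC10 against 0.167, 0.124, 0.0819 and 0.0845 CPM in naive nuclei. The naive values are 1 or 2 counts a library and the CFC10 values 17 to 48. The fitted log2 change of Fos was 4.30 ± 0.45 (adjusted p = 7.88e-06).

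Fosl2 and the Jun family moved less at 10 minutes in the same nuclei. Fosl2 was well expressed at rest, with 27.7, 21.8, 18.9 and 22.8 CPM in CFC10 against 14.1, 13.9, 12.2 and 14.2 CPM in naive nuclei. The groups did not overlap, and its log2 rise was 0.71 ± 0.10 (adjusted p = 0.000238). Junb had 3.59, 3.75, 3.86 and 5.14 CPM in CFC10 against 0.751, 1.42, 1.15 and 1.69 CPM in naive nuclei, a log2 rise of 1.68 ± 0.23 (adjusted p = 0.000237). Jund had 2.79, 2.56, 2.24 and 2.96 CPM in CFC10 against 1.25, 1.36, 1.39 and 1.94 CPM in naive nuclei, again without overlap. Its log2 rise of 0.81 ± 0.21 was called (adjusted p = 0.0276), but not without naive replicate 1, 2 or 3 or CFC10 replicate 1 or 4, when adjusted p was 0.0732 to 0.0856. Jun had 9.14 to 10.7 CPM in CFC10 and 6.42 to 10.1 CPM in naive nuclei, and its log2 change of 0.16 (95% interval -0.08 to 0.40) was not called. In all, 5 of the 6 tested members rose, where 4.86% of all genes were called in either direction. Fos and Fosb passed the filter on low levels only through CFC groups, with a naive mean FPKM of 0.034 and 0.022, so this count is not independent of their rise. Prdx2, which overlaps Junb, had 4.71 to 6.68 CPM in CFC10 and 4.18 to 5.75 CPM in naive nuclei.

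By 30 minutes the rise had receded in HIP NeuN+ nuclei for Fosb, Fos and Junb but not measurably for Fosl2. Fosb had 0.477, 0.25, 0.931 and 0.587 CPM in CFC30 nuclei, below all CFC10 libraries and above all naive ones. It was higher than in naive nuclei by a log2 change of 1.82 ± 0.54 (adjusted p = 0.0379) and lower than at 10 minutes by 2.27 ± 0.27 on the log2 scale (adjusted p = 0.000155). Fos had 0.546, 0.499, 1.36 and 0.44 CPM in CFC30 nuclei, higher than naive by 2.54 ± 0.61 (adjusted p = 0.0118) and lower than CFC10 by 1.76 ± 0.30 (adjusted p = 0.00671). Both rises over naive are fragile. Fosb was not called without CFC30 replicate 3 or 4 or any 1 of the 4 naive replicates (adjusted p 0.0534 to 0.142), and Fos was not called without CFC30 replicate 3 (adjusted p = 0.0522), its highest library. Fosl2 had 18.8, 19.1, 23.4 and 20.5 CPM in CFC30 nuclei and stayed above naive by 0.58 ± 0.10 (adjusted p = 0.0012), with a change of -0.13 ± 0.09 from CFC10 that was not called (adjusted p = 0.682). Junb, at 1.64, 1.66, 2.87 and 1.32 CPM in CFC30 nuclei, fell by 1.12 ± 0.21 against CFC10 (adjusted p = 0.0145). That call was lost without CFC10 replicate 4 or CFC30 replicate 2 or 4 (adjusted p 0.0584 to 0.101). Against naive, Junb differed by 0.56 ± 0.27 and was not called (adjusted p = 0.229). Of the 6 tested members 3 were called against naive, where 8.56% of all genes were, and 3 against CFC10, where 0.298% of all genes were.

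In mPFC NeuN+ nuclei 4 of the 5 genes that rose in HIP NeuN+ nuclei rose as well, all but Jund. The regions sit in separate tables made with different versions of the library kit, so region and kit cannot be told apart and no test was run between them. Fosb had 9.59, 8.55 and 7.89 CPM in CFC10 against 0.172, 0.249 and 0 CPM in naive nuclei, the last being a library without a single count. Its log2 rise was 5.87 ± 0.35 (adjusted p = 2.49e-11). Fos had 9.67, 6.86 and 7.50 CPM in CFC10 against 0.517, 0.415 and 0 CPM in naive nuclei, a log2 rise of 4.66 ± 0.33 (adjusted p = 5.62e-10). Naive replicate 3 had no count of either gene, although its total count was within the range of the others.

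Junb and Fosl2 rose in the same comparison. Junb had 10.3, 8.62 and 9.44 CPM in CFC10 against 1.55, 1.58 and 0.807 CPM in naive nuclei, a log2 rise of 2.84 ± 0.18 or 7.15-fold (adjusted p = 1.28e-10). Prdx2, which overlaps it, had 4.49 to 5.77 CPM in CFC10 and 4.13 to 5.14 CPM in naive nuclei. Fosl2 had 27.6, 18.3 and 20.7 CPM in CFC10 against 6.54, 4.65 and 3.39 CPM in naive nuclei, a log2 rise of 2.19 ± 0.18 (adjusted p = 1.16e-08). No CFC10 library of these 4 genes came near the naive range. Jund, with 2.55 to 4.13 CPM in CFC10 and 1.55 to 2.82 CPM in naive nuclei, overlapped and was not called (log2 change 0.44 ± 0.24, adjusted p = 0.259). Of the 6 tested members 4 rose, where 14.4% of all genes were called. Fos and Fosb again passed the filter on low levels only through CFC groups. The 6 oligodendrocyte markers summed to 120 to 156 CPM in these CFC10 libraries and 64.3 to 86.2 CPM in the naive ones. In mPFC NeuN- CFC10 nuclei the same markers summed to 5458 to 5693 CPM, and each of the 4 genes had a lower mean level there than in NeuN+ CFC10 nuclei. At CFC30 these markers summed to 118 to 184 CPM in mPFC NeuN+ libraries. Fos then averaged 3.02 CPM in NeuN- and 1.90 CPM in NeuN+ nuclei, while Fosb, Fosl2 and Junb had lower means in NeuN-. The part of these markers in the results was not tested.

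At 30 minutes all 4 genes were still above naive in mPFC NeuN+ nuclei, where 24.7% of all genes were called. Fosb had 2.41, 1.16 and 2.09 CPM in CFC30 nuclei, a log2 rise over naive of 3.67 ± 0.50 (adjusted p = 8.19e-06). Fos had 1.65, 1.65 and 2.40 CPM, a rise of 2.60 ± 0.45 (adjusted p = 0.000131). Junb had 3.58, 3.60 and 3.95 CPM, a rise of 1.52 ± 0.22 (adjusted p = 1.6e-05). Fosl2 had 15.5, 16.6 and 22.2 CPM, a rise of 1.91 ± 0.19 (adjusted p = 7.97e-08). Of these 4 genes Fosl2 was again the 1 not called as lower than at CFC10, though no test compared the members with each other. Against CFC10, Fosb fell by 2.20 ± 0.19 on the log2 scale (adjusted p = 2.49e-07), Fos by 2.06 ± 0.21 (adjusted p = 1.77e-06) and Junb by 1.32 ± 0.14 (adjusted p = 3.16e-06). Fosl2 changed by -0.27 ± 0.14 in that comparison and was not called (adjusted p = 0.378), while 3 of 6 members were, against 1.29% of all genes.

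**Figure D1:**
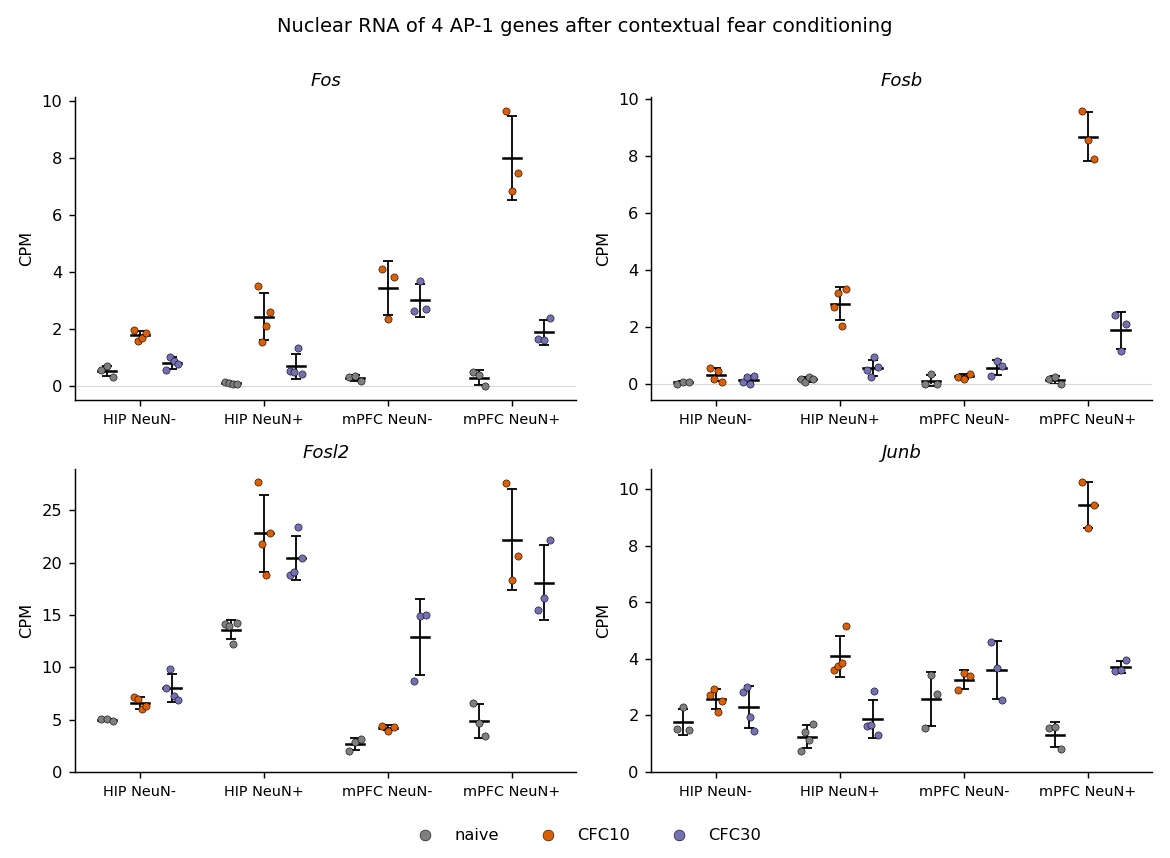
Level of Fos, Fosb, Fosl2 and Junb (CPM, linear axis) in every library of naive, CFC10 and CFC30 nuclei, by region and fraction, with the mean (bar) and SD (whiskers) of each group. Fosb stood at 7.89 to 9.59 CPM in mPFC NeuN+ CFC10 nuclei and at or below 0.791 CPM in every NeuN- library, while Fosl2 in mPFC NeuN- nuclei was highest at CFC30.

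In NeuN- nuclei Fos and Fosl2 were the members that responded, and Fosb remained near the counting floor. Fos had 4.12, 2.37 and 3.85 CPM in mPFC NeuN- CFC10 against 0.347, 0.353 and 0.189 CPM in naive nuclei, a log2 rise of 3.48 ± 0.37 or 11.2-fold (adjusted p = 0.00105). It was the 1 member called of 5 tested, where 1.71% of all genes were called. At 30 minutes Fos still had 2.65, 3.69 and 2.71 CPM, above naive by 3.32 ± 0.38 (adjusted p = 0.000115), and differed from CFC10 by -0.17 ± 0.24, which was not called. Fosl2 followed another course, with 2.00, 2.83 and 3.12 CPM in naive, 4.38, 3.94 and 4.31 CPM in CFC10 and 8.70, 14.9 and 15.0 CPM in CFC30 nuclei. The 3 groups did not overlap. Its change over naive was 0.68 ± 0.25 at CFC10 (adjusted p = 0.202, not called) and 2.31 ± 0.22 at CFC30 (adjusted p = 1.91e-05). Between CFC30 and CFC10 it rose by 1.63 ± 0.20 (adjusted p = 0.000849). Of the 5 members 2 were called at CFC30 against naive, beside 5.85% of all genes, and 1 between CFC30 and CFC10, beside 0.700%. Fos and Fosl2 passed the filter on low levels only through CFC groups, with a naive mean FPKM of 0.088 and 0.120, so these counts are not independent of their rise. Junb had 2.89, 3.50 and 3.39 CPM in CFC10 against 1.56, 3.44 and 2.74 CPM in naive nuclei, which overlapped (log2 change 0.34 ± 0.28, adjusted p = 0.595).

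HIP NeuN- nuclei gave smaller changes. Fos had 1.97, 1.59, 1.72 and 1.87 CPM in CFC10 against 0.568, 0.716 and 0.347 CPM in naive nuclei, without overlap. Its log2 rise of 1.63 ± 0.30 had an adjusted p of 0.0399, and leaving out any 1 of the 7 libraries ended the call (adjusted p 0.0627 to 0.192). At CFC30 it had 0.564 to 1.04 CPM and was not called against naive (adjusted p = 0.474) or against CFC10 (log2 change -1.07 ± 0.25, adjusted p = 0.135). Fosl2 had 8.06, 9.83, 7.22 and 6.88 CPM in CFC30 against 5.02, 5.02 and 4.86 CPM in naive nuclei, a log2 rise of 0.68 ± 0.14 (adjusted p = 0.0182). That call was lost without any 1 of the 3 naive replicates or without CFC30 replicate 1 (adjusted p 0.0545 to 0.0863). Of all genes, 0.345% were called at CFC10, 2.38% at CFC30 and 0.169% between the times, and of the 5 tested members 1, 1 and 0 were. Fos passed the filter on low levels only through CFC groups there. Between the times DESeq2 also called 0, and Fos and Fosl2 had an unadjusted p under 0.05. Prdx2, the gene that overlaps Junb, had 8.03 to 9.68 CPM in HIP NeuN- CFC10 and 4.66 to 5.73 CPM in naive nuclei. Junb itself, with 2.11 to 2.92 CPM in CFC10 and 1.48 to 2.29 CPM in naive nuclei, was not called (log2 change 0.47 ± 0.26, adjusted p = 0.416).

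Neuron markers were present in the NeuN- sort, the inhibitory ones at a higher ratio to NeuN+ than the excitatory ones. In mPFC CFC10 nuclei the mean level in NeuN- was 6.54% of that in NeuN+ for the summed excitatory and 33.5% for the summed inhibitory neuron markers, on the CPM scale. The same ratio was 3.09% for Fosb, 19.0% for Fosl2, 34.6% for Junb and 43.0% for Fos. At CFC30 it was 6.92% for the excitatory and 44.8% for the inhibitory markers, 30.0% for Fosb, 71.2% for Fosl2 and 159% for Fos. In HIP CFC10 nuclei it was 9.90% for the excitatory and 28.5% for the inhibitory markers, 11.4% for Fosb and 72.9% for Fos. The ratio of Fos was above both marker ratios in these 3 groups, and that of Fosb was below the inhibitory one in each. Elsewhere Fosb was above the inhibitory ratio. In HIP CFC30 nuclei the ratio was 27.1% for Fosb and 23.1% for the inhibitory markers. In naive nuclei it was 32.8% and 31.4% in the HIP and 83.8% and 46.3% in the mPFC, on few counts of Fosb. What these ratios reflect was not tested. Inhibitory markers in mPFC NeuN- nuclei summed to 38.0 to 47.1 CPM in naive, 29.8 to 35.4 CPM in CFC10 and 30.8 to 66.9 CPM in CFC30 nuclei. Microglia markers in mPFC NeuN- nuclei summed to 1157 to 1232 CPM in naive, 887 to 1036 CPM in CFC10 and 876 to 1044 CPM in CFC30 nuclei, and oligodendrocyte markers to 4598 to 4970, 5458 to 5693 and 5201 to 5652 CPM. The part of these shifts in the results was not tested.

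The size of the response was then set between fractions as a difference of log2 changes. In the mPFC the CFC10 change of Junb was smaller in NeuN- than in NeuN+ nuclei by 2.49 ± 0.35 (adjusted p = 0.000429), and that of Fosl2 by 1.50 ± 0.39 (adjusted p = 0.0441), where 1.88% of all genes differed. The call of Fosl2 was lost without mPFC NeuN- naive replicate 2 or 3, NeuN- CFC10 replicate 1, 2 or 3, NeuN+ naive replicate 2 or 3 or NeuN+ CFC10 replicate 1 or 3 (adjusted p 0.054 to 0.13). It was also lost with the filterByExpr filter (adjusted p = 0.0594) and with the replicate number as a block (-1.50 ± 0.41, adjusted p = 0.0635). Fosb differed by -4.78 ± 1.47, which was not called by edgeR (adjusted p = 0.106) and was called by DESeq2 (adjusted p = 0.00276) and by edgeR without the filter on low levels (adjusted p = 0.00901). Fos differed by -1.18 ± 0.80 and was not called (adjusted p = 0.615). For the CFC30 change edgeR called 0 of the 6 members, where 4.18% of all genes were called. Junb alone had an unadjusted p under 0.05, and DESeq2 called 0. With mPFC NeuN- naive replicate 1 left out, Junb was called (log2 difference -1.27, adjusted p = 0.0401). In the HIP edgeR and DESeq2 called 0 members for CFC10 (0.0312% of all genes by edgeR) and 0 for CFC30 (0.293% of all genes). An unadjusted p under 0.05 was found for 3 members at CFC10 (Fos, Junb and Jund) and 1 at CFC30 (Fos), and the largest difference was that of Fos at CFC10, -2.70 ± 0.66 (adjusted p = 0.237). Without the filter on low levels, Fos was called there (adjusted p = 0.0379).

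The course from 10 to 30 minutes was compared between fractions after the data had been seen. In the mPFC the change from CFC10 to CFC30 was more positive in NeuN- than in NeuN+ nuclei for Fosl2 by 1.89 ± 0.29 (adjusted p = 0.0022), for Fos by 1.88 ± 0.36 (adjusted p = 0.0199) and for Junb by 1.47 ± 0.30 (adjusted p = 0.0268). Of the 6 members 3 passed, where 0.242% of all genes did. Fosb differed by 3.26 ± 0.72 (adjusted p = 0.059). It was called by DESeq2 (adjusted p = 0.002), by edgeR without the filter on low levels (adjusted p = 3.69e-05) and by edgeR without mPFC NeuN- CFC30 replicate 1 (adjusted p = 0.0305). The call of Fos was lost without NeuN- CFC10 replicate 2, NeuN- CFC30 replicate 2, NeuN+ CFC10 replicate 1 or NeuN+ CFC30 replicate 1 or 2 (adjusted p 0.0536 to 0.0868). That of Junb was lost without NeuN- CFC10 replicate 2, NeuN- CFC30 replicate 1 or 2, NeuN+ CFC10 replicate 1 or 3 or any 1 of the NeuN+ CFC30 replicates (adjusted p 0.0524 to 0.102), and with the filterByExpr filter (adjusted p = 0.0507). In the HIP edgeR and DESeq2 called 0 members in this comparison, while Fosl2 and Junb had an unadjusted p under 0.05, and edgeR called 0.00623% of all genes, which is 1 gene.

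**Figure D2:**
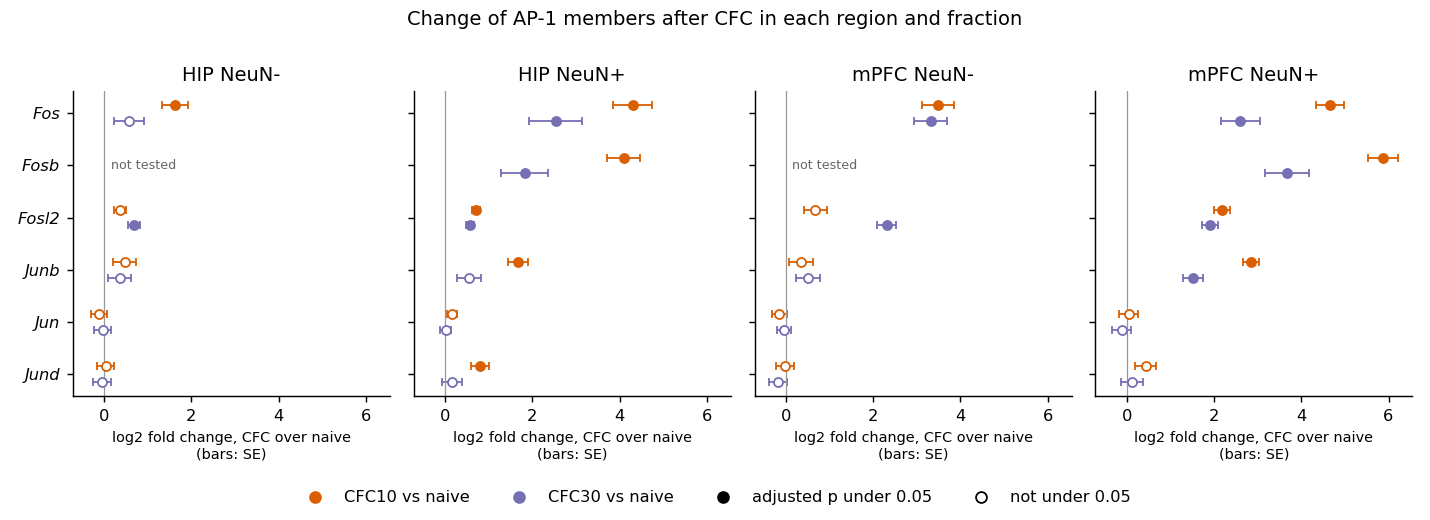
Log2 fold change of 6 members, CFC10 and CFC30 each over naive nuclei, with the SE as whiskers, in 4 panels for region and fraction, and filled points where the adjusted p was under 0.05. Jun lay within 0.17 of 0 on the log2 scale in all 8 comparisons, while Fosb reached 5.87 in mPFC NeuN+ nuclei at CFC10. Fosb was below the filter on low levels in NeuN- nuclei.

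Jun was called in none of the 8 comparisons with naive, and Jund in 1. Jun had 9.66 to 16.0 CPM over the 9 mPFC NeuN- libraries and 1.51 to 2.44 CPM over the 9 mPFC NeuN+ libraries, with naive, CFC10 and CFC30 nuclei overlapping in each. In mPFC NeuN+ nuclei, where Junb rose most, the log2 change of Jun at CFC10 was 0.05 with a 95% interval of -0.38 to 0.48. In the HIP it had 10.8 to 21.2 CPM over the NeuN- and 6.42 to 10.7 CPM over the NeuN+ libraries. Junos, the antisense RNA over Jun, had 18.9 to 20.3 CPM in mPFC NeuN+ CFC10 and 22.0 to 24.2 CPM in naive nuclei. Jund had 4.38 to 9.06 CPM over all NeuN- libraries and 1.25 to 4.13 CPM over all NeuN+ libraries of both regions, and its 1 call was the rise in HIP NeuN+ CFC10 nuclei.

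Fosl1 was at the edge of detection and passed the filter on low levels in none of the 33 comparisons. It had 0 to 7 counts in every library. In mPFC NeuN+ nuclei there were 6, 5 and 1 counts in CFC10, 5, 7 and 1 in CFC30 and 0, 0 and 0 in naive libraries. Pooled, this is 12 counts of 39754066 in CFC10 and 13 of 43824264 in CFC30, against 0 of 36058834 in naive nuclei. Set against a floor of 3 counts over the naive group, the observed level of Fosl1 was 3.63-fold higher in CFC10 and 3.57-fold higher in CFC30 nuclei. The floor allows for counting error in the naive group only. The CFC10 and CFC30 counts were taken as they stand, so these ratios are not lower bounds. Without the filter on low levels, edgeR gave it an adjusted p of 0.00704 at CFC10 and 0.00406 at CFC30. Ccdc85b, which overlaps Fosl1, had 1.07 to 1.70 CPM in CFC10 and 0.689 to 0.968 CPM in naive libraries of the same nuclei, and reads of the overlap cannot be told apart. HIP NeuN+ nuclei held 0, 2, 3 and 3 counts of Fosl1 in CFC10 and 0, 1, 0 and 0 in naive libraries. Pooled, this is 8 counts of 57094010 against 1 of 52201945, a ratio of 7.31 with an exact 95% counting interval of 0.981 to 325, and without the filter on low levels edgeR did not call it (adjusted p = 0.352).

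**Figure D3:**
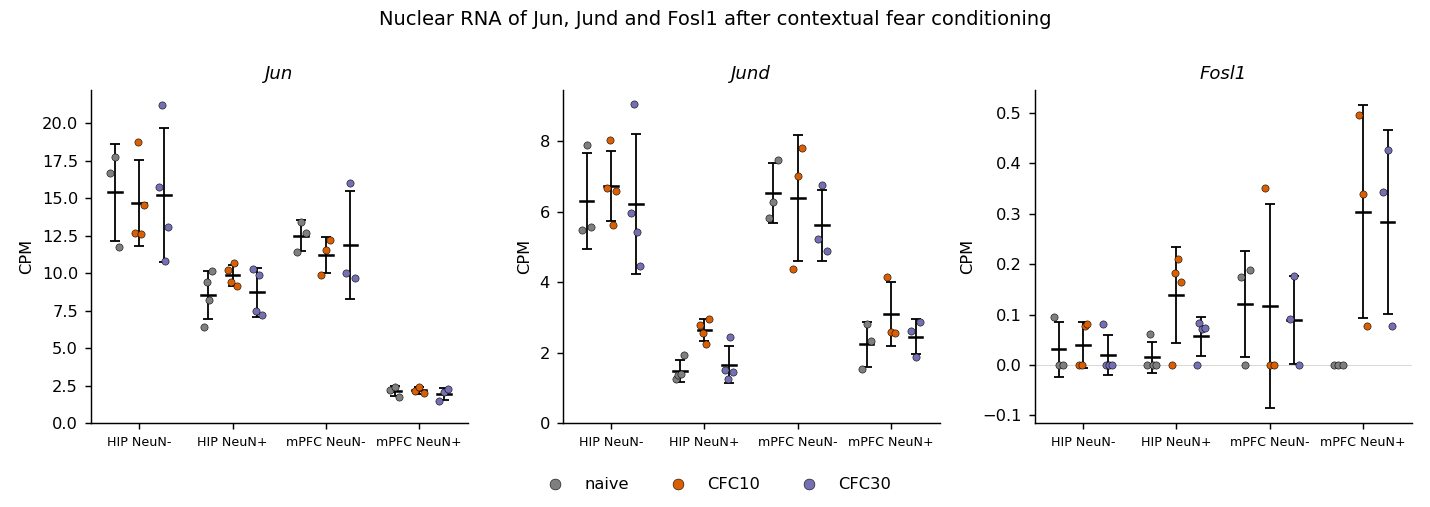
Level of Jun, Jund and Fosl1 (CPM, linear axes that differ between panels) in every library of naive, CFC10 and CFC30 nuclei, by region and fraction, with group mean and SD. Jun in mPFC NeuN+ nuclei stayed between 1.51 and 2.44 CPM in all 9 libraries, and Fosl1 was at or below 0.496 CPM in every library.

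Corticosterone, the main glucocorticoid of the mouse, moved 2 members in PU.1+ nuclei, in opposite directions, and none was called in the other populations. Fosl2 had 25.5, 29.5, 23.9 and 24.3 CPM in PU.1+ corticosterone against 12.2, 13.3, 14.9 and 13.7 CPM in PU.1+ saline nuclei. The groups were far apart, and the log2 rise was 0.96 ± 0.09, or 1.95-fold (adjusted p = 6.01e-06). Junb had 4.87, 6.22, 5.24 and 6.94 CPM in corticosterone against 9.80, 10.3, 9.38 and 9.77 CPM in saline PU.1+ nuclei, again without overlap, and fell by 0.72 ± 0.13 on the log2 scale (adjusted p = 0.0024). Prdx2, which overlaps Junb, had 5.43 to 7.55 CPM in corticosterone and 5.90 to 8.64 CPM in saline nuclei. Of the 5 tested members 2 were called in PU.1+ nuclei, where 7.81% of all genes were, and both calls held without any single library. The Fos family made up 12.2% ± 1.52 of the AP-1 FPKM in corticosterone and 7.18% ± 1.14 in saline PU.1+ nuclei (n = 4 each). The 6 astrocyte markers summed to 443 to 611 CPM in corticosterone and 267 to 327 CPM in saline PU.1+ libraries, and the 6 microglia markers to 6023 to 6383 and 6370 to 6896 CPM. In GFAP+ nuclei astrocyte markers summed to 3096 to 3506 CPM after corticosterone, and Fosl2 had 8.31 to 9.66 CPM. The part of the astrocyte markers in the PU.1+ results was not tested.

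In the other 3 populations edgeR and DESeq2 called 0 members and 0 had an unadjusted p under 0.05, while edgeR called 2.93% of all genes in GFAP+, 7.48% in 3X- and 2.06% in NeuN+ nuclei. Members tested were 5 in GFAP+ and 4 each in 3X- and NeuN+ nuclei, where Fos and Fosb were below the filter on low levels. Fosl2 had 9.57, 9.66, 8.31 and 8.92 CPM in GFAP+ corticosterone against 9.26, 6.55, 7.98 and 8.24 CPM in saline nuclei. In 3X- nuclei it had 6.98 to 7.91 CPM with corticosterone and 5.10 to 7.31 CPM with saline, and in NeuN+ nuclei 17.0 to 23.4 and 14.9 to 20.4 CPM. The corticosterone effect on Fosl2 was larger in PU.1+ than in NeuN+ nuclei by 0.83 ± 0.15 on the log2 scale (adjusted p = 0.000213; 1.54% of all genes differed). After the data had been seen it was also compared with the other populations, and was larger in PU.1+ than in GFAP+ nuclei by 0.73 ± 0.17 (adjusted p = 0.00722; 2.14% of all genes) and than in 3X- nuclei by 0.70 ± 0.18 (adjusted p = 0.012; 3.97% of all genes). The effect on Junb did not pass in these 3 comparisons (adjusted p 0.323 to 0.85), so its fall is not shown to differ from that in other populations. Between GFAP+ and NeuN+ (0.513% of all genes) and between 3X- and NeuN+ nuclei (2.00% of all genes), edgeR and DESeq2 called 0 members and 0 had an unadjusted p under 0.05. Fos, with 0.284 to 1.02 CPM in GFAP+ corticosterone and 0.865 to 1.72 CPM in saline nuclei, changed by -0.81 ± 0.39 on 2 to 15 counts a library and was not called (adjusted p = 0.482). Fosb never passed 0.853 CPM in this experiment.

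**Figure D4:**
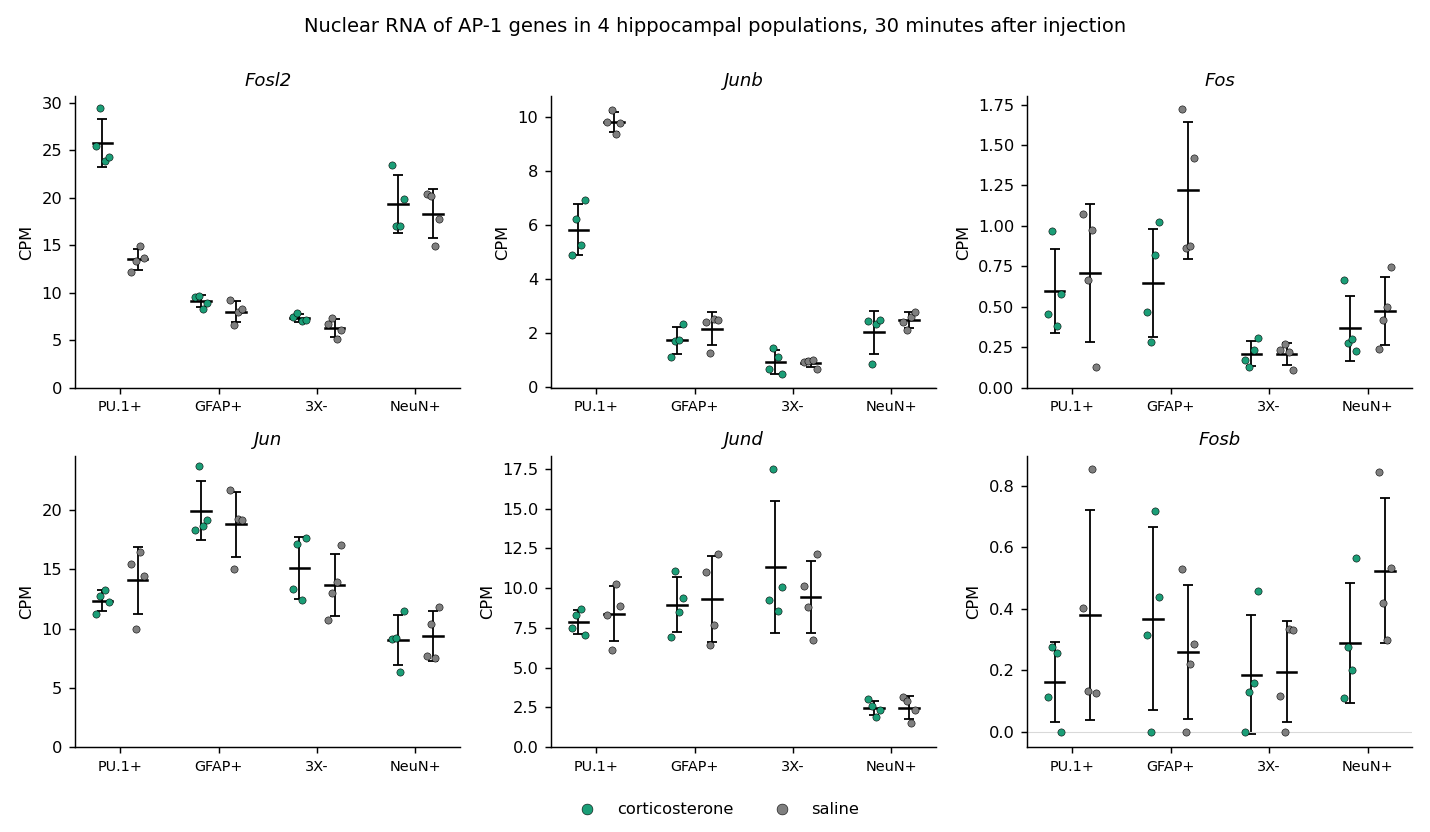
Level of 6 members (CPM, linear axes that differ between panels) in every corticosterone and saline library of PU.1+, GFAP+, 3X- and NeuN+ hippocampal nuclei, with group mean and SD. The PU.1+ groups are apart for Fosl2 (23.9 to 29.5 CPM with corticosterone, 12.2 to 14.9 with saline) and Junb (4.87 to 6.94 and 9.38 to 10.3 CPM), and overlap for the others.

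Saline nuclei came from injected mice, so their levels are not shown to be those at rest. NeuN+ saline nuclei averaged 0.476 CPM of Fos, 0.524 of Fosb and 2.47 of Junb. HIP NeuN+ naive nuclei averaged 0.114, 0.161 and 1.25 CPM of these genes. The difference between these experiments was not tested. Within the saline nuclei, each population was set against the mean of the other populations. Here most genes differ: 66.5% of all genes passed between PU.1+ nuclei and the mean of the other populations, 53.5% for GFAP+, 54.2% for 3X- and 65.4% for NeuN+ nuclei. Of the 5 tested members 1 was called as higher in PU.1+ nuclei. In GFAP+ nuclei 3 were called as higher and 1 as lower, all but Junb. In 3X- nuclei 1 was higher and 3 lower, and in NeuN+ nuclei 1 was higher and 2 lower. Junb averaged 9.81 ± 0.36 CPM in PU.1+ nuclei (SD, n = 4), against 2.47 ± 0.29 in NeuN+, 2.15 ± 0.61 in GFAP+ and 0.885 ± 0.15 in 3X- nuclei, and NeuN+ and GFAP+ overlapped. It was higher in PU.1+ nuclei than in the others by 2.25 ± 0.15 on the log2 scale (adjusted p = 1.56e-17), the 1 call of 5 members there. In GFAP+ nuclei it was not called (adjusted p = 0.062), but was with the filterByExpr filter and without 3X- saline replicate 4 or NeuN+ saline replicate 2 (adjusted p 0.0437 to 0.047). Fosl2 averaged 18.3 ± 2.58 CPM in NeuN+, 13.5 ± 1.09 in PU.1+, 8.01 ± 1.12 in GFAP+ and 6.31 ± 0.95 in 3X- nuclei, where the last 2 overlapped. It was higher in NeuN+ nuclei than in the others by 1.42 ± 0.09 (adjusted p = 1.65e-18) and lower in 3X- nuclei, at 0.499-fold (SE 0.11 on the log2 scale, adjusted p = 7.48e-11). In PU.1+ nuclei Fosl2 was not called (adjusted p = 0.068). It was called there with RLE scaling, DESeq2, the filterByExpr filter and the replicate block, and without GFAP+ saline replicate 1, 3X- saline replicate 2 or NeuN+ saline replicate 1 or 2 (adjusted p 0.0137 to 0.0471). Fos averaged 1.22 ± 0.42 CPM in GFAP+, 0.710 ± 0.43 in PU.1+, 0.476 ± 0.21 in NeuN+ and 0.209 ± 0.069 in 3X- nuclei, each overlapping its neighbour in that order. It was called as higher in GFAP+ (log2 change 1.42 ± 0.33, adjusted p = 0.000257) and lower in 3X- nuclei (-1.79 ± 0.47, adjusted p = 0.00117) than in the others. Jund averaged 8.40 to 9.45 CPM in the 3 non-neuronal populations, which overlapped, and 2.48 ± 0.73 CPM in NeuN+ nuclei (log2 change -1.52 ± 0.21 against the others, adjusted p = 2.29e-08). Jun averaged 18.8 ± 2.75 CPM in GFAP+, 14.1 ± 2.84 in PU.1+, 13.7 ± 2.64 in 3X- and 9.37 ± 2.11 in NeuN+ nuclei, with overlap between neighbours. Its lower level in NeuN+ nuclei (log2 change -0.34, adjusted p = 0.0183) was not called without NeuN+ saline replicate 1 or 3 (adjusted p 0.111 and 0.14). Here TMM scaling moves NeuN+ nuclei up by 0.38 and PU.1+ nuclei down by 0.28 on the log2 scale against the others, relative to CPM.

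Other genes of the pathway were counted from lists, which were chosen with earlier results of these data known. List genes can pass the filter on low levels only through the groups where they are high. Counts of called among tested list genes are therefore not independent of their rises. Of 16 other immediate early genes, all 14 that were tested rose in mPFC NeuN+ CFC10 nuclei, with a median log2 change of 2.62 (all genes 0.01), and 12 of 14 were up at CFC30, beside 14.4% and 24.7% of all genes called in either direction. Arc, a postsynaptic protein, rose 14.1-fold at CFC10 (adjusted p = 1e-15), and Egr1, a zinc finger factor, 8.22-fold. Homer1, a postsynaptic scaffold, was the 1 gene of the list called as higher at CFC30 than at CFC10 (1.60-fold, adjusted p = 2.49e-07), while 9 fell, where 1.29% of all genes were called. In HIP NeuN+ nuclei 10 of 13 rose at CFC10 (4.86% of all genes called) and 9 of 13 at CFC30 (8.56%). In mPFC NeuN- nuclei 3 of 11 rose at CFC10 (Arc, Nr4a1 and Egr1; 1.71% of all genes called) and 8 of 11 at CFC30 (5.85%), and Nr4a1, an orphan nuclear receptor, was up 2.05-fold and 3.58-fold. In HIP NeuN- nuclei edgeR called 0 of 10 at CFC10 (0.345% of all genes), with 3 at an unadjusted p under 0.05, and 2 at CFC30 (2.38%), Nr4a1 and Nr4a3. After corticosterone, Klf4, a zinc finger factor, was up 4.27-fold in PU.1+ (adjusted p = 2.84e-06) and 2.03-fold in 3X- nuclei (adjusted p = 0.0255), where 7.81% and 7.48% of all genes were called and 2 of 13 and 2 of 10 genes of the list.

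Of 16 dimer partners and related leucine zipper genes, Jdp2, a partner of Jun that represses AP-1 targets, was up in 3 of the 8 comparisons with naive: mPFC NeuN+ CFC10 (1.19-fold, adjusted p = 0.0061) and CFC30 (1.36-fold) and mPFC NeuN- CFC30 nuclei (1.42-fold). It was also up after corticosterone in PU.1+ (2.15-fold, adjusted p = 1.86e-06) and NeuN+ nuclei (1.24-fold). Mafk, a small Maf protein without an activation domain, was up after corticosterone in 3X- (4.11-fold, adjusted p = 1.06e-13) and PU.1+ nuclei (1.88-fold). In mPFC NeuN+ nuclei 4 of 10 tested partners rose at CFC10 (Jdp2, Bach2, Atf4 and Mafg), where 14.4% of all genes were called, and at CFC30 3 rose and 1, Atf7, fell, where 24.7% were. After corticosterone 4 of 13 were called in PU.1+ nuclei, beside 7.81% of all genes. In the HIP edgeR called 0 of 10 in NeuN+ and 0 of 12 in NeuN- nuclei at either time, with 2 to 5 at an unadjusted p under 0.05.

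Of 14 factors that act on Fos and Jun promoters, 11 were tested in NeuN+ nuclei. Mef2d and Srf rose in mPFC NeuN+ CFC10 nuclei, and 2 of 11 is near the 14.4% of all genes called there. At CFC30 4 rose (Mef2d, Elk1, Elk4 and Crem) and Mef2c fell, where 24.7% of all genes were called. Mef2d, a factor held at activity-dependent enhancers, rose 1.21-fold and 1.29-fold there. Crem, a CRE-binding factor, was up 1.48-fold in mPFC NeuN- CFC30 nuclei (adjusted p = 0.000773), and Creb1 1.19-fold in HIP NeuN+ CFC30 nuclei. In PU.1+ nuclei after corticosterone Atf1 rose and 3 fell of 12 tested (7.81% of all genes called), with Elk3, a partner of serum response factor, at 0.718-fold (adjusted p = 0.000152). Of 15 MAP kinases and their effectors, Rps6ka5 (MSK1) fell to 0.814-fold and 0.803-fold in mPFC NeuN+ CFC10 and CFC30 nuclei, and Rps6ka2 and Rps6ka3 were among 3 that rose at CFC30. In these comparisons 3 and 4 of 13 tested were called, beside 14.4% and 24.7% of all genes. Mapk10 (JNK3) was up 1.30-fold in mPFC NeuN- CFC30 nuclei. After corticosterone Rps6ka1 (RSK1) fell to 0.591-fold in PU.1+ (adjusted p = 4.24e-06) and Mapk3 (ERK1) to 0.649-fold in 3X- nuclei, where 4 and 2 of 15 were called beside 7.81% and 7.48% of all genes.

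Of 10 genes that act in the turnover of Fos and Jun products, Zfp36, which directs the decay of AU-rich mRNAs, was up after corticosterone in GFAP+ (1.96-fold, adjusted p = 0.022) and 3X- nuclei (2.66-fold). Its relative Zfp36l1 was down in the same populations (0.579-fold and 0.634-fold) and up in PU.1+ nuclei (1.43-fold). The list had 3 of 9 tested called in GFAP+, 3 of 9 in 3X- and 1 of 9 in PU.1+ nuclei, beside 2.93%, 7.48% and 7.81% of all genes. In mPFC NeuN+ nuclei Zfp36l2 rose 2.29-fold at CFC10, and at CFC30 Itch, an E3 ligase of Jun proteins, and Pum2 rose by under 1.15-fold and Ubr1 fell, which is 1 and 3 of 7 tested beside 14.4% and 24.7% of all genes. Of 12 textbook AP-1 targets, 6 were tested in PU.1+ nuclei, and Hmox1, heme oxygenase 1 (2.20-fold), and Plaur, the urokinase receptor (1.98-fold), rose with corticosterone, where 7.81% of all genes were called. Ccnd1 (cyclin D1) fell to 0.671-fold in mPFC NeuN- CFC30 and 0.779-fold in 3X- corticosterone nuclei, the 1 call of 5 and of 3 tested targets there, beside 5.85% and 7.48% of all genes.

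Over the 12 group means of the CFC experiment, the genes most like Fos, Fosb and Junb were sought among 15145 genes by Pearson correlation of log2 CPM, as a description without a test. The points share libraries, regions and kit. For Fos these were Junb (r = 0.92), Ormdl3 (0.90) and Arc (0.88), for Fosb Egr4 (0.96), Gadd45b (0.95) and Arc (0.93), and for Junb Arc (0.95), Fos (0.92) and Fosb (0.87). Jun correlated with these members at -0.22, -0.56 and -0.31.

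In the peak lists used here, γH2AX peaks covered members of the Jun family. Both lists are shorter than the peak sets the study describes, so the absence of a peak is stated for these lists only. The HIP list held 282 peaks with a median width of 15425 bp, and 3 of them covered the whole gene bodies of Jun (chr4:95047512-95053277), Junb (chr8:84971133-84979657) and Jund (chr8:70698391-70702984). The mPFC list held 260 peaks with a median width of 16504 bp, and 2 covered Junb (chr8:84968812-84979649) and Jund (chr8:70696468-70705228). With 5766, 8525 and 4594 bp in the HIP and 10838 and 8761 bp in the mPFC, the 5 peaks were narrower than the median peak of their list. Each reached further past the gene end than past the gene start. At Junb the HIP peak ran 939 bp before the start and 3351 bp beyond the end, and the mPFC peak 931 and 5672 bp, and both hold the promoter bases printed above. Prdx2 overlaps Junb on the other strand, so these peaks are not shown to belong to Junb alone. The HIP peak at Jun likewise holds its printed promoter.

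In the mPFC list the nearest peak to Jun was 25060460 bp away. For Fos the nearest peak lay 13225077 bp away in the HIP and 1401155 bp in the mPFC list, for Fosb 2351528 and 2378633 bp, and for Fosl2 860024 and 859776 bp. Fosl1 had the closest neighbour of the 4, a peak over Cfl1 at 34517 bp in the HIP and 34423 bp in the mPFC. No peak of these lists overlapped a Fos family gene. With 282 and 260 peaks for 53749 genes, most genes have no peak in these lists, so this absence does not set the Fos genes apart. The share of all genes under a peak was not counted. Junb had a peak in both and rose in NeuN+ nuclei of both regions, and Jund had a peak in both and was called once against naive. The lists give positions without a height, replicate or condition of their own, so no level of γH2AX and no change with CFC can be read from them here, and a gene outside the lists is not shown to be free of γH2AX.

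**Figure D5:**
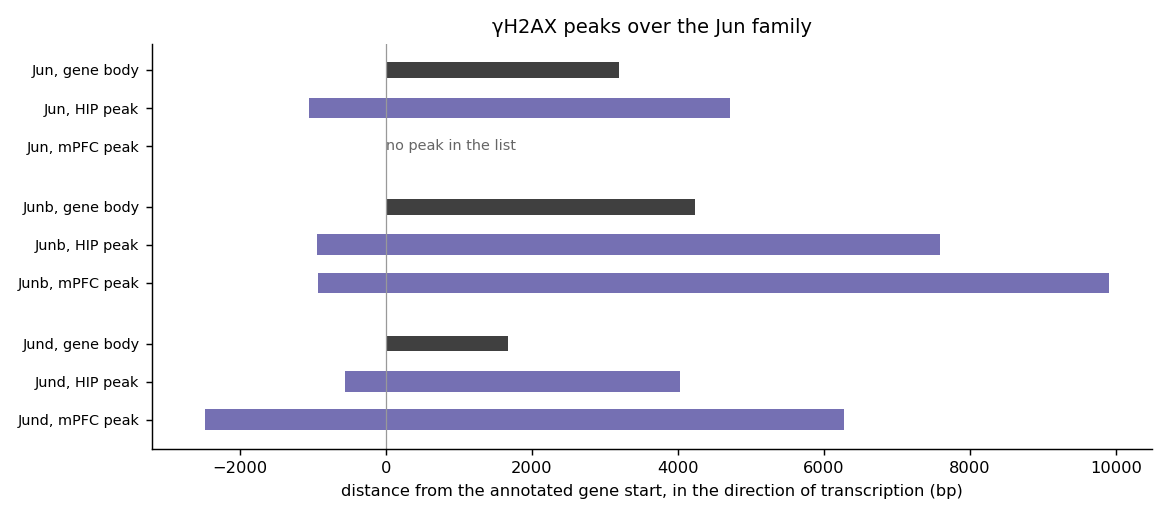
Extent of each γH2AX peak over Jun, Junb and Jund (bp from the annotated gene start, in the direction of transcription), with the gene body above it, for the HIP and mPFC lists. All 5 peaks cover the gene body, and the mPFC peak over Junb reaches 5672 bp past its end. Prdx2, which overlaps Junb, is not drawn.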

How the data were processed

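Nuclear RNA-seq libraries (74, of which 73 were used) and 2 lists of γH2AX peaks from 14 ChIP-seq samples were analysed. The deposited RNA values are raw counts per gene body. To make these counts the authors cut template-switch bases from reads (Trimmomatic), mapped them to GRCm38 (HISAT2), removed duplicates (Picard) and assigned reads to exons and introns alike (featureCounts). The peaks, aligned with Bowtie2 and called with MACS2 on merged replicates, were deposited as positions without a score. Versions and the strand setting are not given in the sources used here. mPFC libraries were made with the first and HIP libraries with the second version of the kit. ID matching left 67 of 53749 gene IDs unnamed (0.0232% to 0.0266% of counts).

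The filter on low levels kept genes whose FPKM averaged over 0.2 in some group. Fos and Fosb in NeuN+ nuclei, and Fos in NeuN- nuclei, passed it in both regions only through CFC groups. Fosl2 in mPFC NeuN- nuclei passed it only through CFC30. Counts of called among tested members therefore include members admitted by the groups where they are high, and the same can hold for list genes. The whole table was then tested by edgeR 4.0.16 (R 4.3.3) with its quasi-likelihood F test after TMM scaling, and p-values were adjusted by Benjamini-Hochberg with a threshold of 0.05. The steps were tested on simulated data first. The SE is the log2 change over the square root of F, and intervals are 1.96 SE to either side. Conditions of 1 region and fraction were fitted together, each corticosterone population by itself, and differences between fractions or populations in 1 fit of all their groups. Comparisons with the same naive or saline libraries share them. Alternatives were RLE scaling in edgeR, DESeq2 1.42.0, no filter on low counts, the filterByExpr filter, the replicate number as a block, and leaving out each library in turn. DESeq2 was run without its own filter on low means, a choice made after seeing that this filter left 50 of 177 member values without an adjusted p. Likeness used log2(CPM + 0.5), and peaks were assigned at 1 bp of overlap. Tables and plots used pandas 2.3.3, NumPy 2.4.6 and matplotlib 3.10.9 under Python 3.11.15. Members were tested wherever they passed the filter, and not each is named in every comparison. Of each list the 4 genes with the smallest adjusted p after CFC and the 2 after corticosterone were named, other list genes being named where a count is small. The members and lists were chosen with earlier results of these data known, and 4 of the 33 comparisons were added after the data were seen. Deviations of same-numbered libraries from their group means were correlated, which cannot show that libraries are unpaired. Between 2 conditions the correlations were -0.34 to 0.512, and in 0 of 16 group pairs all were over 0.1. For GFAP+ saline and corticosterone nuclei the mean was 0.214, against -0.067 for libraries of other numbers. Of 18 pairs of populations under 1 condition, all correlations were over 0.1 in 2, NeuN- with NeuN+ in mPFC CFC10 (0.101 to 0.125) and GFAP+ with 3X- in saline nuclei (0.139 to 0.239), but not in the other groups of the same comparisons. Mean correlations of mPFC NeuN- with NeuN+ nuclei were 0.109, 0.111 and 0.087 in naive, CFC10 and CFC30. Libraries of other numbers had -0.054, -0.055 and -0.044. By the paper's gating, NeuN- and NeuN+ nuclei were split from the same stained nuclei, and GFAP+, PU.1+ and 3X- nuclei from their NeuN- part. Fractions and populations therefore share tissue, though the labels do not say which libraries match. This pairing was not used in the main tests, which treated the libraries as independent. The tests had no block, and the value with the replicate block is given beside each result whose call it changes.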

Additional observations from a re-analysis of the deposited data

Results flagged for a closer look

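A library that stood far from the other 3 of its group (Dixon's test at 95%) was found in 10 of the 91 groups of 4 tested, where chance gives about 1 in 20. In HIP NeuN+ nuclei these were Fos in CFC30 (1.36 CPM against 0.44 to 0.546 in the others), Fosl2 in naive (12.2 CPM against 13.9 to 14.2) and Junb in CFC10 (5.14 CPM against 3.59 to 3.86). Fosl1 stood out in HIP NeuN- CFC30 (0.0806 CPM), HIP NeuN+ naive (0.0619 CPM) and HIP NeuN+ CFC30 (0.0 CPM, the lowest), which is a matter of 1 count a library. In the corticosterone experiment they were Jun in GFAP+ corticosterone (23.7 CPM), Junb in GFAP+ saline (1.24 CPM) and in NeuN+ corticosterone (0.825 CPM), and Jund in 3X- corticosterone nuclei (17.5 CPM against 8.54 to 10 in the others).

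Effects that differed between cell populations by the test of the difference itself were those of corticosterone on Fosl2, larger in PU.1+ than in NeuN+ (log2 difference 0.83), GFAP+ (0.73) and 3X- nuclei (0.70). In the mPFC the CFC10 effect differed between NeuN- and NeuN+ nuclei for Fosl2 (-1.50) and Junb (-2.49), and the change from CFC10 to CFC30 for Fos (1.88), Fosl2 (1.89) and Junb (1.47). The last 3 and the differences of PU.1+ from GFAP+ and 3X- nuclei come from comparisons added after the data were seen.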

How the results depend on the processing

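Of 177 values of members in the comparisons, 56 were called, and 45 of these stayed called under every alternative run. Over 2849 alternative values, 2772 lay on the same side of the threshold, 54 lost a call and 23 gained one, and none of the called values turned its sign. Another 100 values called in neither fit did. The number of members called rose from 1 to 2 between saline PU.1+ nuclei and the other populations with RLE scaling, with DESeq2, with the filterByExpr filter and with the replicate block, each time by Fosl2 (log2 change 0.20 to 0.26). It rose from 0 to 1 for the HIP CFC10 effect between NeuN- and NeuN+ nuclei with no filter on low counts, and fell from 2 to 1 for the same effect in the mPFC with the filterByExpr filter and with the replicate block, each time by Fosl2. Same-numbered libraries deviated together in 2 of 18 pairs of populations and 0 of 16 pairs of conditions, and the replicate block moved no other count of called members by over 1.5 times. Leaving out 1 library gave 1 to 2 called members for saline PU.1+ nuclei, 1 to 3 for HIP NeuN+ CFC30 against naive (main 3), 0 for HIP NeuN- CFC10 without any 1 library (main 1) and 0 to 1 for HIP NeuN- CFC30 (main 1). It gave 1 to 2 for the mPFC CFC10 effect between fractions, 0 to 1 for the CFC30 effect (main 0) and 1 to 3 for the mPFC change from CFC10 to CFC30 between fractions (main 3). The genes behind these are named with each result, and the cause was not tested. The 5 peaks over members held at an overlap of 50% of the gene body and by the symbols in the lists, and of the 9 most like genes 9 were shared with a pseudocount of 1 CPM and 6 with Spearman's rho. Over all genes, the number called differed by over 1.5 times mainly with no filter on low counts: 1032 against 604 with the filter for HIP NeuN+ CFC10, 96 against 37 for HIP NeuN+ CFC30 over CFC10, 514 against 51, 917 against 352 and 213 against 25 for HIP NeuN- CFC10, CFC30 and CFC30 over CFC10, and 375 against 167 for mPFC NeuN+ CFC30 over CFC10. In mPFC NeuN- nuclei it gave 751 against 254, 1486 against 870 and 514 against 104, and with corticosterone 711 against 425 in GFAP+ and 2782 against 1091 in 3X- nuclei. For differences between fractions it gave 71 against 5, 191 against 47 and 45 against 1 in the HIP (CFC10, CFC30 and the change between them), 664 against 311 for CFC10 and 153 against 40 for the change in the mPFC, and 666 against 371 and 1414 against 735 for the corticosterone effect in 3X- against NeuN+ and PU.1+ against 3X- nuclei. DESeq2 called 154 against 261 in corticosterone NeuN+, 153 against 51 in HIP NeuN- CFC10, 54 against 25 in HIP NeuN- CFC30 over CFC10, 106 against 167 in mPFC NeuN+ CFC30 over CFC10, and 17 against 5, 79 against 47 and 12 against 1 for the HIP differences. It moved the share of higher calls to 73.4% against 61.3% in corticosterone NeuN+, to 60.0% against 45.9% in HIP NeuN+ and to 70.8% against 58.7% in mPFC NeuN+ nuclei (CFC30 over CFC10). The filterByExpr filter gave 23 against 51 and 6 against 25 in HIP NeuN- CFC10 and CFC30 over CFC10 and 142 against 254 in mPFC NeuN- CFC10 nuclei. The replicate block gave 396 against 261 in corticosterone NeuN+, 180 against 51 and 600 against 352 in HIP NeuN- CFC10 and CFC30, and 3 against 5 for the HIP CFC10 difference. Depth limits Fosl1 and, in naive and NeuN- nuclei, Fos and Fosb, which rest on a few counts a library.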
